A study of Mus musculus with 107 samples.

Results

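Ears of mice given dimercaprol before sulfur mustard were compared with ears of mice given indomethacin before the same dose of mustard. The groups were chosen by the treatment labels and held 6 right ears each, all from different animals. Each ear was measured on a pair of Affymetrix mouse arrays, here array A and array B, so that 24 of the 107 arrays of the series entered the comparison. In the dimercaprol group, 6.25 mg (50.3 µmol) of dimercaprol in 10 µL of ethanol was given 15 min before mustard. In the indomethacin group, 1.34 mg (3.74 µmol) of indomethacin in 20 µL of ethanol was given at the same interval. The drugs therefore differed in dose and in volume, and the comparison is between the treatments at those doses. In both groups the inner side of the right ear then received 0.08 mg (0.5 µmol) of mustard, dissolved in methylene chloride (5 µL), and an 8 mm biopsy was taken at 24 h. Left ears with methylene chloride alone (21 ears on each array) gave the background. On array A, 4 ears with each drug and no mustard were also measured. Strain, sex and age of the mice are not given in the labels.

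Sulfur mustard is an alkylating agent that damages DNA and proteins of skin cells and leads to blistering, keratinocyte death and inflammation. Dimercaprol is a dithiol that binds metals and can react with electrophiles. Indomethacin inhibits the cyclooxygenases, which make the precursor of the prostaglandins. An injured epidermis switches from its resting keratins to wound keratins, makes cornified envelope and antimicrobial proteins, and releases chemokines that recruit neutrophils. An ear biopsy holds epidermis, hair follicles, sebaceous glands, dermis, muscle and cartilage in bulk, so that fewer cells of a type and less RNA per cell cannot be told apart.

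Signals are given after each array was scaled to the same trimmed mean, and differences are dimercaprol minus indomethacin on the log2(signal + 16) scale with their standard error. A probe set was tested where its mean signal over the 12 ears was at least 100, so that a gene could enter through the group where it is high. Among the called genes named here, Has3, Cxcl2, Etv4, Maff, Bcl3, Saa1 and Adm had a dimercaprol mean under 100, and Dkk2, Il15 and Ccnb2 an indomethacin mean under 100; their folds rest on a group under the filter level and are descriptions. Resting keratinocyte keratins were abundant in both groups. Krt5 had mean signals of 13300 and 13000 and Krt10 of 20900 and 25200 after dimercaprol and indomethacin, and neither passed the test. Before scaling, the arrays A of the dimercaprol group were brighter on average, with trimmed mean signals of 200 ± 45.9 (SD, n = 6) against 156 ± 34.4, and the ranges of 150 to 268 and 128 to 211 overlapped. A 2-sided exact permutation test of this difference gave p = 0.0974, or 0.584 adjusted over 6 array measures. The 3' to 5' ratios of Gapdh and Actb, a measure of RNA integrity, gave exact p-values from 0.342 to 0.768 over both arrays. Array B was dimmer, with trimmed means of 40.2 ± 5.17 and 38.6 ± 3.38.

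Of 15264 array A probe sets, 1249 (8.18%) passed an adjusted p of 0.05, 666 higher and 583 lower after dimercaprol. By gene, 422 of 9206 (4.58%) were higher and 405 (4.4%) lower, and in 330 genes (3.58%) the 6 ears of one group did not overlap the other 6. The most extreme changes were downward: 115 probe sets were at least 2-fold and 26 at least 4-fold lower after dimercaprol, whereas 52 were at least 2-fold and 0 at least 4-fold higher. The dimercaprol mean lay nearer the methylene chloride mean than the indomethacin mean did in 99.1% of the probe sets called lower and in 95.5% of those called higher, against 72.7% of all probe sets tested. With the brightness of the array as a covariate, no probe set passed on array A (2109 had an unadjusted p under 0.05), although all 1249 kept their direction. Values without rescaling the arrays gave 1327 called probe sets, of which 93.1% were higher after dimercaprol, with the median of all probe sets shifted to 0.35.

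Genes of wounded and stressed keratinocytes were much lower after dimercaprol. Of the 25 genes listed, 20 were on the arrays and above the filter on low signals; 18 of them were called lower and 0 higher, and the ears did not overlap in 5. Their median difference was -2.84, against 0.02 over all array A genes tested. Of all array A genes 4.4% were called lower, and in 3.58% the ears did not overlap. For array B, where 1 member of the list was measured, these shares were 0.323% and 1.68%. This list had been drawn up with results of these data known, and its count describes the direction rather than supporting it. Tgfa and Ereg, growth factors of the EGF family, were the members that did not pass, with differences of -0.45 ± 0.18 and -0.47 ± 0.21.

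Krt16, a keratin of hyperproliferative and wounded epidermis, had signals of 634, 960 and 7380 (lowest, median and highest ear) after dimercaprol and 6910, 14100 and 19400 after indomethacin. The indomethacin ears were all far above the methylene chloride range of 119 to 983, while 3 of the dimercaprol ears lay within it and only the highest reached the indomethacin range. The difference was -3.02 ± 0.55, or 8.09-fold lower (adjusted p = 0.0115). Krt6b, its usual partner keratin, was lower by a similar amount, with medians of 919 and 16600 and a difference of -3.44 ± 0.74 (adjusted p = 0.0199). Krt6a and Krt6b are near-identical, and cross-hybridization between their probe sets cannot be separated. Krt17, induced in injured and appendage keratinocytes, had mean signals of 1830 ± 503 and 4740 ± 1470 (SD, n = 6), with a difference of -1.35 ± 0.23 and ears that did not overlap.

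Slpi, a secreted inhibitor of neutrophil elastase, had dimercaprol signals of 319, 412 and 1920 and indomethacin signals of 2060, 7090 and 10600. All dimercaprol ears were below all indomethacin ears, and 4 of them lay inside the methylene chloride range of 228 to 823. The difference was -3.22 ± 0.48 (9.33-fold, adjusted p = 0.00887). Calprotectin, the antimicrobial heterodimer of S100a8 and S100a9, was also lower. S100a8 ran from 213 over a median of 344 to 9590 after dimercaprol and from 5060 over 12800 to 17200 after indomethacin. In 4 dimercaprol ears S100a8 was at 353 or below, whereas ears 8 and 12 (numbered by animal) stood at 3160 and 9590. S100a8 differed by -3.87 ± 0.79 (14.7-fold, adjusted p = 0.0165) and S100a9 by -3.92 ± 0.75 (15.2-fold, adjusted p = 0.0144). S100a8 and S100a9 are made by keratinocytes of injured skin and by neutrophils.

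**Figure D1:**
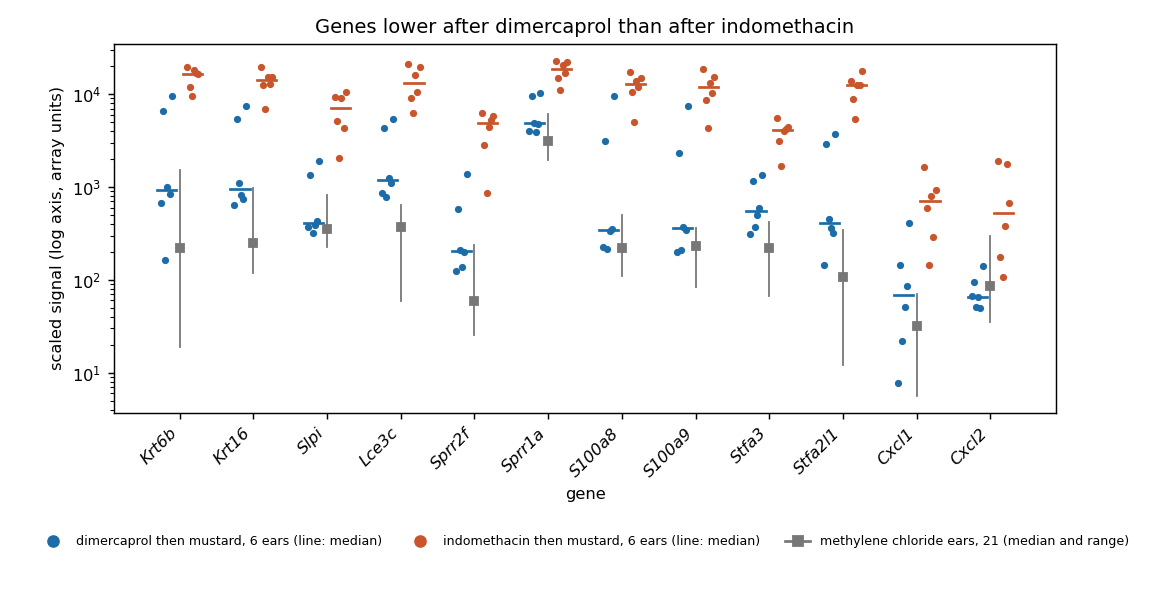
Scaled signal (log axis) of 12 genes called lower after dimercaprol, one point for each of 6 ears a group with the group median as a line, and the median and range of 21 methylene chloride ears in grey. For Slpi, Lce3c, Sprr1a, Stfa3 and Stfa2l1 the groups do not overlap; in most genes a pair of dimercaprol ears stands above the other four.

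Cornified envelope genes of the small proline-rich (Sprr) and late envelope (Lce3) families were also lower. Lce3c had signals of 774, 1180 and 5360 after dimercaprol against 6210, 13300 and 20900 after indomethacin, a difference of -2.90 ± 0.47 (adjusted p = 0.00987). Sprr1a ran from 3900 to 10300 (median 4830) against 11100 to 22900 (median 18600), a difference of -1.61 ± 0.26 (adjusted p = 0.00916). Both genes were separated without overlap, and the dimercaprol ears of Lce3c were still above the methylene chloride range of 59.0 to 641. Sprr2f, Sprr2h and Sprr2d differed by -3.54 ± 0.57, -2.49 ± 0.39 and -1.50 ± 0.26. The Sprr2 genes are close paralogs whose probe sets may share signal. Among growth factors, Epgn, an EGF receptor ligand, differed by -3.27 ± 0.62 (adjusted p = 0.0131) and Hbegf, another such ligand released on wounding, by -1.86 ± 0.42 (adjusted p = 0.0228). Defb3, an antimicrobial beta-defensin, showed the largest difference of the list, -4.26 ± 0.84 (adjusted p = 0.0158).

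Promoters of called Sprr genes are shown because Sprr transcription is known to be driven by AP-1. Not all Sprr genes passed, since Sprr3 differed by -0.79 (adjusted p = 0.107). Each run is the 250 bases before the RefSeq start (GRCm38.p6), written along the gene's strand. Capitals mark matches to the AP-1 motif TGANTCA, which reads as the same pattern on both strands. Sprr1a lies on the minus strand at chr3:92485882-92486131, and Sprr2d, Sprr2f and Sprr2h lie on the plus strand at chr3:92338890-92339139, chr3:92364937-92365186 and chr3:92385435-92385684.
Sprr1a: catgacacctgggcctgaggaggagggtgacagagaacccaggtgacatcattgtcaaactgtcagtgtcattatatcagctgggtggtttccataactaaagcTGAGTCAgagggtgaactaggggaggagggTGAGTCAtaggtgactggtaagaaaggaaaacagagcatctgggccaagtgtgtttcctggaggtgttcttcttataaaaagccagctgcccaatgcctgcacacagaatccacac
Sprr2d: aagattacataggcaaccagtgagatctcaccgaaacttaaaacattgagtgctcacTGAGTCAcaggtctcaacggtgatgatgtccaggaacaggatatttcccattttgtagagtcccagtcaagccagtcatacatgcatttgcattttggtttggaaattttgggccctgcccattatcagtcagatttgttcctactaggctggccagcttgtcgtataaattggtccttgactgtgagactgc
Sprr2f: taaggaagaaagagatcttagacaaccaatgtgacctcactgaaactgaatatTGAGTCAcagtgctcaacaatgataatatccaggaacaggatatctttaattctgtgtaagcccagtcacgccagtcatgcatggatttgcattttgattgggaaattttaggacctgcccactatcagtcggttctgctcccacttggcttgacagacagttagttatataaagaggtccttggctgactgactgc
Sprr2h: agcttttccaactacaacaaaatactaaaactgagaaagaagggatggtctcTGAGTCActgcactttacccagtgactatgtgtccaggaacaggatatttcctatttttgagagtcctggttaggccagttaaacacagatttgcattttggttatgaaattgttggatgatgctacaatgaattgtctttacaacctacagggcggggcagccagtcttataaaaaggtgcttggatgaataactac
These 4 were chosen among the called Sprr genes because they hold the motif, with 2 matches in Sprr1a. In Sprr2d, Sprr2f and Sprr2h the match ends 186, 190 and 191 bases before the start, a nearly shared position. Over all 32851 promoters of the table, 6.75% hold a match in the same window. Of the 20 kept members of the wound list, 14 had a promoter in the table and 5 of these a match, the fifth being Sprr1b. All 5 are Sprr paralogs and not independent promoters, and the list was drawn up with these data known. The count is therefore no test of enrichment. A match describes letters only and does not show a bound site.

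Many of the lowered genes are neighbours. Of the 18 called wound genes, 10 lie on chromosome 3 between S100a10 and S100a1, the epidermal differentiation complex. Of all 38 genes of this interval tested on array A, 15 were called lower and 0 higher, with a median of -0.29. On array B, 2 of a further 10 were lower. Among all genes tested, 4.4% were called lower on array A and 0.323% on array B. The interval was chosen after the values had been seen. The Lce3, Sprr1, Sprr2 and calprotectin genes tested there were called lower, while the Lce1 genes tested on array A, the late envelope genes of resting epidermis, ranged from -0.21 to 0.25 with no call. Flg, which encodes filaggrin of the resting stratum corneum, differed by 0.10 and Lor, the envelope protein loricrin, by -0.13, neither past the test.

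The list of epidermal differentiation genes, with 29 of 31 kept, had 6 called lower and 0 higher, with a median of -0.12. Among all array A genes 4.4% were lower. Tgm1, the transglutaminase that cross-links the envelope, had signals of 950, 1140 and 1480 against 1590, 2380 and 2870, without overlap, and differed by -0.97 ± 0.15 (adjusted p = 0.00887). Tgm3 differed by -1.09 ± 0.21 and Rptn, an envelope precursor, by -2.07 ± 0.36. Outside the list, the connexin genes Gjb2 and Gjb6 were among the largest differences. Gjb2 (connexin 26) ran from 979 over 1320 to 2310 after dimercaprol and from 2920 over 4700 to 6940 after indomethacin, a difference of -1.73 ± 0.24 (3.31-fold, adjusted p = 0.00752), and Gjb6 (connexin 30) differed by -1.89 ± 0.29. Has3, a hyaluronan synthase, had dimercaprol ears between 24.6 and 111 and indomethacin ears between 121 and 973, and passed the filter only through the latter. Among 14 basal keratinocyte genes, Krt15, a keratin of the basal layer and follicle bulge, was the one called gene and was higher after dimercaprol, by 0.87 ± 0.23 (adjusted p = 0.0340). Its medians of 8970 and 4820 both lay below the methylene chloride range of 10600 to 18200.

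The neutrophil chemokine genes Cxcl1 and Cxcl2 were lower after dimercaprol on array A. Cxcl1 had signals of 7.83, 68.5 and 411 after dimercaprol and 144, 701 and 1630 after indomethacin; Cxcl2 ran from 49.8 over 66.0 to 140 and from 108 over 524 to 1890. These CXCR2 ligands differed by -2.74 ± 0.65 (adjusted p = 0.0272) and -2.56 ± 0.58 (adjusted p = 0.0230), with overlap of single ears. Cxcl2 passed the filter only through the indomethacin group, and Cxcl1 on array B differed by -0.94 and did not pass (adjusted p = 0.115). All dimercaprol ears of Cxcl2 were within the methylene chloride range of 35.2 to 298. Of 13 kept cytokines and chemokines of 20 listed, 3 were called lower and 0 higher, against 4.4% lower of all array A genes. Ccl4 was the third (-0.60 ± 0.15). Cxcl3, a further ligand of CXCR2, differed by -2.06 on array B and did not pass (adjusted p = 0.164). Il1b, the inflammasome-processed interleukin, had medians of 173 and 337 and a difference of -1.11 ± 0.33 that did not pass (adjusted p = 0.0508). Il6, Tnf, Cxcl5, Ccl3, Ccl20, Csf2 and Csf3 were below the filter.

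Of 12 kept neutrophil markers, 6 were lower and 0 higher, with a median of -0.78, against 4.4% lower of all array A genes. The stefin Stfa2l1, an inhibitor of cysteine proteases found in neutrophils and injured epidermis, was measured on array B at 146, 409 and 3700 against 5410, 12600 and 17800. Its groups were apart, and the difference of -4.02 ± 0.62 (16.2-fold, adjusted p = 0.0126) was the largest named on that array. Stfa3 differed by -2.52 ± 0.35 (5.72-fold, adjusted p = 0.00752), again without overlap, and the stefins are close paralogs. Lcn2, an iron-siderophore binding protein also made by keratinocytes, differed by -1.83 ± 0.38 (adjusted p = 0.0165), Slfn4 by -1.16 ± 0.28 and Ngp, a granule protein, by -0.90 ± 0.22. Against the left ear of the same animal the Slfn4 difference turned to 0.17 (adjusted p = 0.822). The defining receptor Cxcr2 was below the filter, as were Clec4e and Camp. On array A the mean level of 10 markers over the methylene chloride mean ran from -0.15 to 0.59 after dimercaprol and from 0.58 to 1.40 after indomethacin. Of 12 macrophage and monocyte markers, Cd14, the lipopolysaccharide co-receptor, was the one called, at -1.08 ± 0.23; Cd68 differed by -0.43 ± 0.15 and did not pass.

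Levels of whole lists in single ears showed that the dimercaprol group was uneven. The mean level of 19 wound genes above the methylene chloride mean was 0.53, 0.62, 1.08 and 1.10 in dimercaprol ears 6, 9, 10 and 11 and 2.57 and 3.28 in ears 8 and 12. The indomethacin ears lay between 2.98 and 4.73, so that ear 12 alone overlapped them. Brightness moved with this level inside the dimercaprol group, since ears 12 and 8 had the lowest trimmed mean signals, 150 and 166, and ear 6 the highest, 268. With brightness as a covariate Slpi still differed by -2.47 (adjusted p = 0.0802), Krt16 by -2.16 (adjusted p = 0.150) and Stfa3 by -1.87 (adjusted p = 0.0588). Without dimercaprol ears 8 and 12, 18 of the 20 wound genes were called lower. Of the 12 neutrophil markers 6 were then lower, and of the 29 p53 targets 13. With brightness as a covariate 1, 1 and 0 were called lower, with 20, 11 and 23 still below 0. Over all array A probe sets, 1499 of 15264 were called in either direction without ears 8 and 12, and 0 with brightness as a covariate. On array B these counts were 196 and 66 of 17073. Ears 8 and 12 were picked after their high wound levels were seen, so that the wound count without them does not support the difference. Without dimercaprol ear 12 the count of calls on array A was 1538, and without ear 8 it was 1014. Without dimercaprol ears 6, 9, 10 and 11 in turn it was 281, 306, 304 and 302, and without indomethacin ears 16, 17, 19 and 22 it was 436, 735, 634 and 324. Leaving out indomethacin ear 18, which had the lowest wound level of its group, gave 1987.

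**Figure D2:**
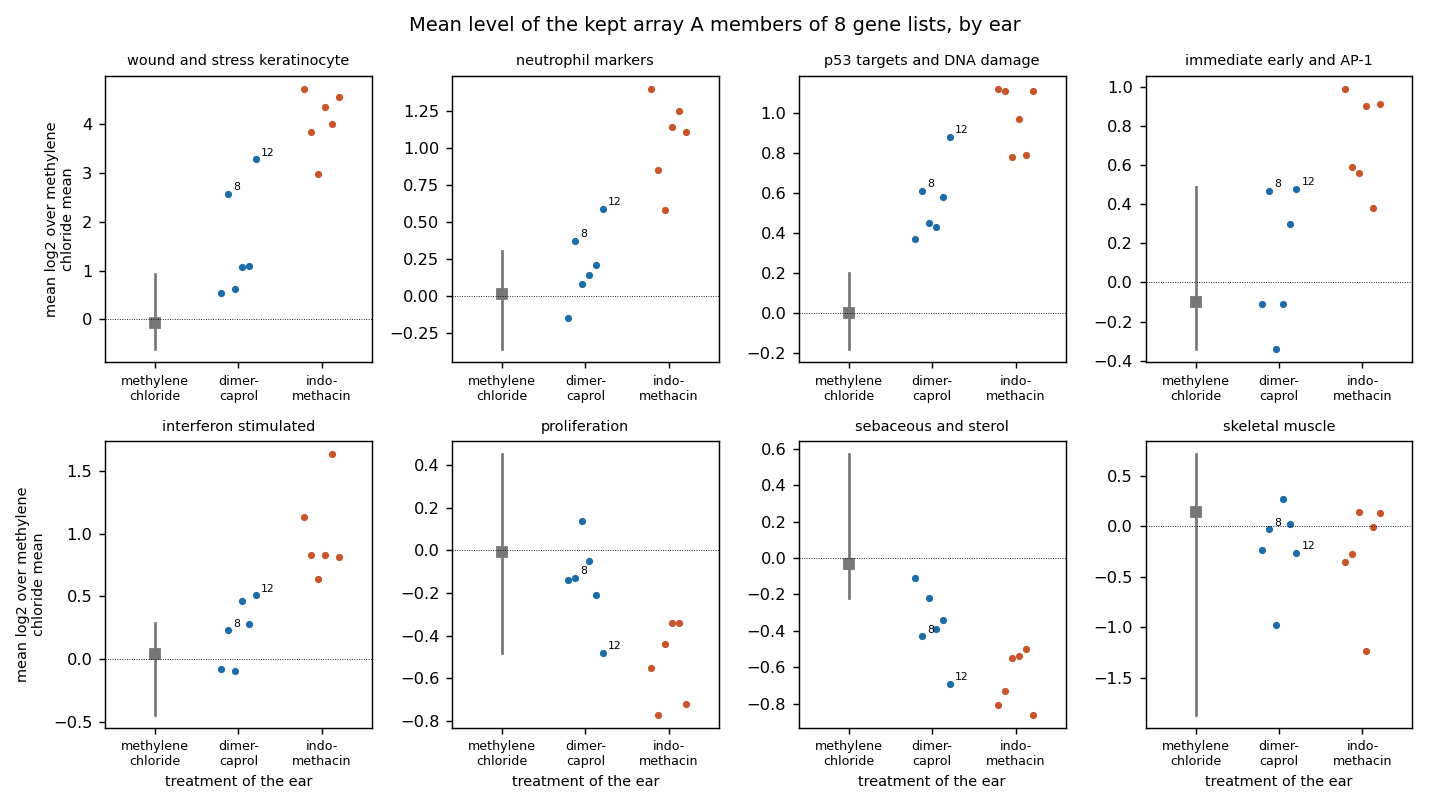
Mean log2 level over the methylene chloride mean of the kept array A members of 8 gene lists, one point an ear, with the median (square) and range (bar) of 21 methylene chloride ears. Dimercaprol ears 8 and 12 are numbered; ear 12 lies at 3.28 for the wound list, inside the indomethacin range, and skeletal muscle overlaps fully between the groups.

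Prostaglandin and eicosanoid genes, the pathway that indomethacin acts on, changed in both directions. Of 20 kept members, 2 were higher and 3 lower after dimercaprol, with a median of 0.00, against 4.58% higher and 4.4% lower of all array A genes. Pla2g4a, the cytosolic phospholipase that releases arachidonic acid, had signals of 386, 546 and 843 after dimercaprol and 173, 284 and 318 after indomethacin. The groups did not overlap, and Pla2g4a was higher by 1.03 ± 0.18 (2.05-fold, adjusted p = 0.0105). Ptges, which makes prostaglandin E2, was lower, at 445, 861 and 939 against 1100, 1400 and 1530, a difference of -0.80 ± 0.16 (adjusted p = 0.0158). The Ptges difference was -0.46 without rescaling (adjusted p = 0.131) and -0.18 against the left ear of the same animal (adjusted p = 0.690). Epidermal lipoxygenases of the permeability barrier, Alox12b and Aloxe3, were lower by -0.87 ± 0.16 and -0.50 ± 0.10. In the left ears of the animals Alox12b and Aloxe3 differed by -0.48 ± 0.15 and -0.33 ± 0.14, and right minus left by -0.37 and -0.12 (adjusted p = 0.434 and 0.756). Ptgs2, the inducible cyclooxygenase, had medians of 70.6 and 137 and did not pass (-0.85 ± 0.30, adjusted p = 0.0929). Hpgd, which degrades prostaglandins, and the receptor gene Ptger4 differed by -0.25 ± 0.12 and 0.20 ± 0.16 with no call, and the array probes were not matched to Ptgs1. On array B the epidermal phospholipases Pla2g4d and Pla2g4e were lower by -1.32 ± 0.23 and -1.15 ± 0.17, opposite to Pla2g4a.

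Metal-handling genes were examined because dimercaprol chelates metals. Of 20 kept members, 2 were higher and 4 lower, with a median of -0.13, against 4.58% higher and 4.4% lower of all array A genes. Mt4, the metallothionein of stratified epithelium, had signals of 6210, 6910 and 9320 after dimercaprol and 574, 3590 and 5610 after indomethacin. No ears overlapped, the dimercaprol ears lay within the methylene chloride range of 3290 to 9840, and Mt4 was higher by 1.61 ± 0.45 (3.05-fold, adjusted p = 0.0409). That call was lost in 13 of 26 alternatives, among them the Gapdh ratio as a covariate and leaving out dimercaprol ear 6 or 8. The ubiquitous, metal-inducible Mt2 went the other way, with medians of 7130 and 11000 and a difference of -0.54 ± 0.14 (adjusted p = 0.0336) that was -0.08 against the left ear of the same animal (adjusted p = 0.856). Mt1 differed by -0.55 ± 0.23 and did not pass (adjusted p = 0.142). In the left ears of the animals Mt1 differed by -0.88 ± 0.17 and Mt2 by -0.46 ± 0.16, with no call. Slc30a1, the zinc exporter induced by zinc, had medians of 414 and 465 with no call (-0.14 ± 0.10). The iron exporter gene Slc40a1 was higher by 0.88 ± 0.22 and the zinc importer gene Slc39a8 lower by -0.74 ± 0.19, which was -0.07 right minus left (adjusted p = 0.929).

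The promoters of the 3 metallothioneins are printed because Mt1 and Mt2 are textbook targets of the metal-responsive factor while the Mt4 difference had the opposite sign. The Mt1 difference did not pass, and the Mt2 and Mt4 calls were lost in some alternatives. The runs are again the 250 bases before the RefSeq start on the plus strand (GRCm38.p6), at chr8:94178839-94179088 for Mt1, chr8:94172368-94172617 for Mt2 and chr8:94136954-94137203 for Mt4. Capitals mark TGCACNC or TGCGCNC, forms of the metal response element, on either strand.
Mt1: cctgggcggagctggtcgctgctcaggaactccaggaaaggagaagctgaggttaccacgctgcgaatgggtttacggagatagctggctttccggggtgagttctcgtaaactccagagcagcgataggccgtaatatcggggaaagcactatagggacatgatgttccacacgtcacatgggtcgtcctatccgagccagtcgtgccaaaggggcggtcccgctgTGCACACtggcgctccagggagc
Mt2: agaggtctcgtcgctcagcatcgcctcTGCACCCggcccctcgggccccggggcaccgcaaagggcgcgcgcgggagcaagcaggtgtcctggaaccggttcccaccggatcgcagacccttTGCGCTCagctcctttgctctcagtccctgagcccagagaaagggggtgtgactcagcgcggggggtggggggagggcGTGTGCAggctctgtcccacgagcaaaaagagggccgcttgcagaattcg
Mt4: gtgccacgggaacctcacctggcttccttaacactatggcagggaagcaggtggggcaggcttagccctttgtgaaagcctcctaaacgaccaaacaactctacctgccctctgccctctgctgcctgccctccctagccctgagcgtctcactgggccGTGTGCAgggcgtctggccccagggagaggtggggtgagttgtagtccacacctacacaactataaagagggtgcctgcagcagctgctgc
Within these 250 bases Mt2 holds 3 matches, and Mt1 and Mt4 hold 1 each. Bases beyond this window, also those after the annotated start, were not searched. The counts therefore do not rank the whole promoters of the 3 genes. Over all promoters 21.4% hold at least 1 match in this window, as do 9 of the 15 metal-handling genes that had a promoter entry.

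Few glutathione genes were called. Of 24 kept genes of the Nrf2 and glutathione list, 2 were higher and 1 lower, against 4.58% higher and 4.4% lower of all array A genes. So few calls describe single genes and not the list. Gsta2, a glutathione S-transferase, ran from 992 over 1260 to 1570 after dimercaprol and from 557 over 772 to 886 after indomethacin, and was higher by 0.78 ± 0.14 (adjusted p = 0.0124). Gstm1 was higher by 0.80 ± 0.16, and neither gene's groups overlapped. Srxn1, which reduces overoxidized peroxiredoxins and is induced by Nrf2, was lower by -0.79 ± 0.19 (adjusted p = 0.0279). Further Nrf2 targets were not called: Nqo1 differed by -0.38 ± 0.12, Hmox1 by -0.18 ± 0.11 and Gclm by -0.02 ± 0.12.

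Part of the genes induced by p53 after DNA damage were lower after dimercaprol. The mean level of 28 targets over the methylene chloride mean ran from 0.37 to 0.88 after dimercaprol and from 0.78 to 1.12 after indomethacin, and reached 0.20 at most in methylene chloride ears. Of 29 kept targets, 12 were lower and 1 higher, with a median of -0.50, against 4.4% lower and 4.58% higher of all array A genes. The others did not pass, among them Ccng1 at -0.43, Gadd45a at -0.02 and Xpc, a DNA repair gene, at 0.52. Cdkn1a, the p21 cell cycle inhibitor, had signals of 5200, 5940 and 9600 after dimercaprol and 8170, 10900 and 13700 after indomethacin, against a methylene chloride range of 3020 to 5120. All 12 mustard ears thus exceeded the background, and the groups differed by -0.73 ± 0.15 (adjusted p = 0.0182). Without rescaling the difference was -0.38 and against the left ear of the same animal -0.33, neither called. Mdm2, the ubiquitin ligase that restrains p53, differed by -0.94 ± 0.25 (adjusted p = 0.0343) on array A and by 0.37 on array B (adjusted p = 0.739). Plk2 differed by -1.04 ± 0.23 and Pmaip1, the apoptosis gene Noxa, by -1.32 ± 0.34. Of 24 kept cell cycle genes, 2 were higher and 0 lower (median 0.38), against 4.58% higher among all array A genes. Mki67, the proliferation antigen, had medians of 302 and 134 and was higher by 1.03 ± 0.29 (adjusted p = 0.0410), and Ccnb2, a mitotic cyclin, by 0.88 ± 0.23. The Mki67 call held in 11 of 25 alternatives.

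Immediate early and AP-1 genes had 10 of 26 members lower and 0 higher, with a median of -0.49, against 4.4% lower of all array A genes. That share stands beside the NF-kB and interferon counts below as well. Fosl1, an AP-1 subunit of wound keratinocytes, differed by -1.50 ± 0.38, Junb by -0.75 ± 0.19 and Maff by -1.88 ± 0.38. Dusp6, the phosphatase that feeds back on ERK, ran from 398 over 587 to 714 and from 784 over 1730 to 2990, a difference of -1.49 ± 0.26 (adjusted p = 0.0106) with no overlap. Etv4, an ETS factor induced by ERK signalling, differed by -1.60 ± 0.28. Of 14 NF-kB feedback genes, 4 were lower, among them Icam1, the leukocyte adhesion molecule, at -1.09 ± 0.22 and Bcl3 at -1.76 ± 0.44. Interferon-stimulated genes had 3 of 11 kept members lower and 0 higher, with a median of -0.82, and Rsad2, Gbp2 and Igtp differed by -1.24 ± 0.27, -1.18 ± 0.24 and -1.10 ± 0.28. Ifi202b, an interferon-inducible DNA sensor, was separated without overlap, at 293 to 620 against 697 to 5190 (-2.19 ± 0.40). Acute phase amyloid Saa1 differed by -1.48 ± 0.28 and Saa3 by -1.31 ± 0.33.

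Probe sets called higher after dimercaprol had a median difference of 0.59, against -0.61 for those called lower. Dbp, a PAR bZIP factor with a circadian rhythm, had signals of 794, 1250 and 1550 after dimercaprol and 147, 320 and 704 after indomethacin. All dimercaprol ears were above all indomethacin ears and within the methylene chloride range of 340 to 1900, and the difference was 1.77 ± 0.33 (3.41-fold, adjusted p = 0.0121). The left ears of the animals, which had methylene chloride alone, also stood apart in Dbp, at 1490 to 1560 in 4 dimercaprol animals and 340 to 1040 in 4 indomethacin animals, and the right minus left difference came to 0.68 with an adjusted p of 0.224. Mycl, a Myc family gene, had medians of 550 and 244 and was higher by 1.76 ± 0.47 (adjusted p = 0.0351), with a call in 13 of 26 alternatives.

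Further genes with the largest called differences upward are described as single genes. Dkk2, a WNT antagonist, ran from 123 over 232 to 389 against 40.7 over 80.0 to 122 (1.40 ± 0.26, adjusted p = 0.0123), and Sostdc1, a BMP and WNT antagonist of follicles, differed by 1.24 ± 0.27. In the left ears Sostdc1 differed by 0.76 ± 0.19 in the same direction (adjusted p = 0.321), and right minus left it differed by 0.44 (adjusted p = 0.303). Kazald1, an insulin-like growth factor binding related protein, had medians of 983 and 392 and was higher by 1.41 ± 0.30 (2.66-fold, adjusted p = 0.0185). Slco3a1, an organic anion transporter, was higher by 1.28 ± 0.21 and kept its call in 24 of 26 alternatives. The cytokine gene Il15, which sustains lymphocytes, had signals of 198, 209 and 252 against 59.6, 76.1 and 175 (1.15 ± 0.21, adjusted p = 0.0111). Meox2, a mesodermal homeobox gene, Robo1, a guidance receptor, and Kcnk2, a potassium channel, were higher by 1.13 ± 0.17, 1.12 ± 0.24 and 1.04 ± 0.17. In each of these genes the ears of the groups did not overlap.

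**Figure D3:**
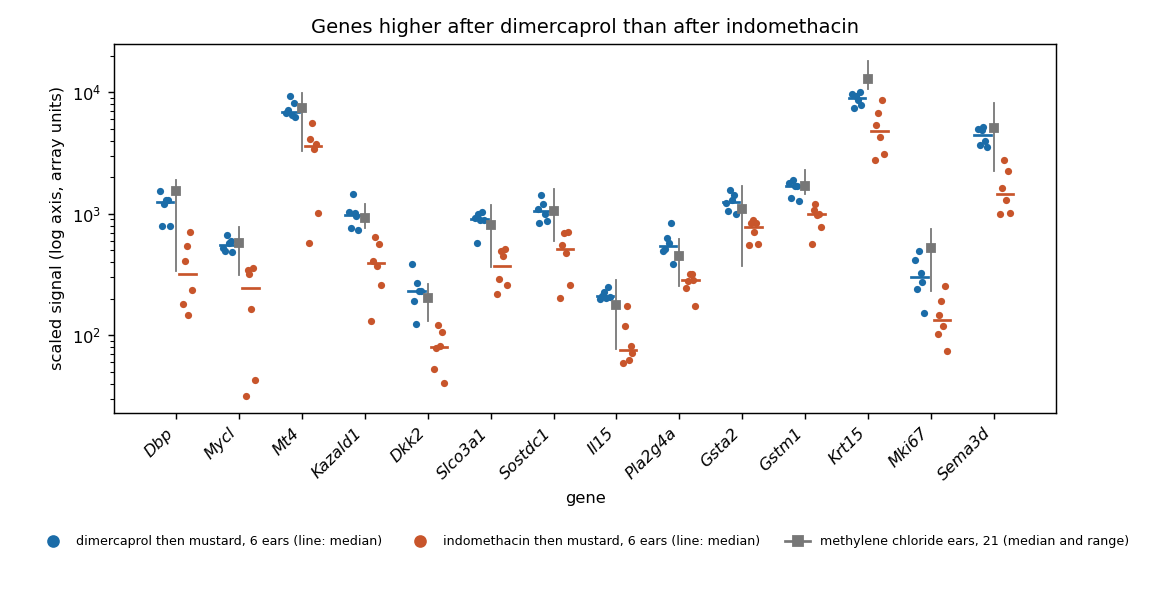
Scaled signal (log axis) of 14 genes called higher after dimercaprol, one point for each of 6 ears a group with the group median as a line, and the median and range of 21 methylene chloride ears in grey. Dimercaprol ears of Dbp, Mycl and Mt4 lie within the methylene chloride range, and for Krt15 and Mki67 single ears of the groups overlap.

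Lipid synthesis genes of sebaceous glands had 3 of 22 members higher and 0 lower (median 0.31). Among all array A genes 4.58% were higher and 4.4% lower, and the small list counts of this paragraph describe single genes. Elovl6, a fatty acid elongase, Fdps and Fdft1, enzymes of sterol synthesis, were higher by 0.58 ± 0.14, 0.44 ± 0.11 and 0.69 ± 0.18, and their dimercaprol means of 4810, 4380 and 2460 were still below the methylene chloride means of 9120, 5360 and 2840. F3, tissue factor, was higher by 1.03 ± 0.26 and Lpl, lipoprotein lipase, by 0.68 ± 0.19. Right minus left, 4 animals a group, also moved by over 1.5 times and ended the calls of Meox2 (0.75), Gstm1 (0.49), Fdft1 (0.34), Pla2g4d (-0.79), Maff (-1.19), Rsad2 (-0.64), Adm (-0.72) and Pgam1 (-0.16). Lists of other cell types showed no call among kept members of skeletal muscle (27), fibroblast (17), cartilage (12), melanocyte (8), antigen presenting cell (8), mast cell (6), Schwann cell (6) and T cell (4). With few members, the lack of a call does not show equal levels. The T cell list had the highest median of all lists, 0.51. Its mean array A level was -0.20 ± 0.26 (SD) after dimercaprol and -0.79 ± 0.38 after indomethacin. The skeletal muscle level spread from -0.98 to 0.27 after dimercaprol and from -1.23 to 0.14 after indomethacin, and with it as a covariate 1202 probe sets were called on array A. Hair follicle genes had a median of -0.43 with 1 of 29 called, Gata3, which was higher (0.52 ± 0.14). Endothelial genes had 2 of 14 lower, Icam1 and Thbd (-0.66 ± 0.17). Heat shock genes had 2 of 15 lower, with Hsp90aa1 at -0.81 ± 0.16. Hypoxia and glycolysis genes had 2 of 21 lower, Pgam1 and Adm. The list of matrix metalloproteinases, inhibitors and plasminogen genes had 1 higher (F3) and 1 lower (Plaur) of 16, and no metalloproteinase was called. Members of the unfolded protein and amino acid list were split, 3 higher and 4 lower of 25.

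**Figure D4:**
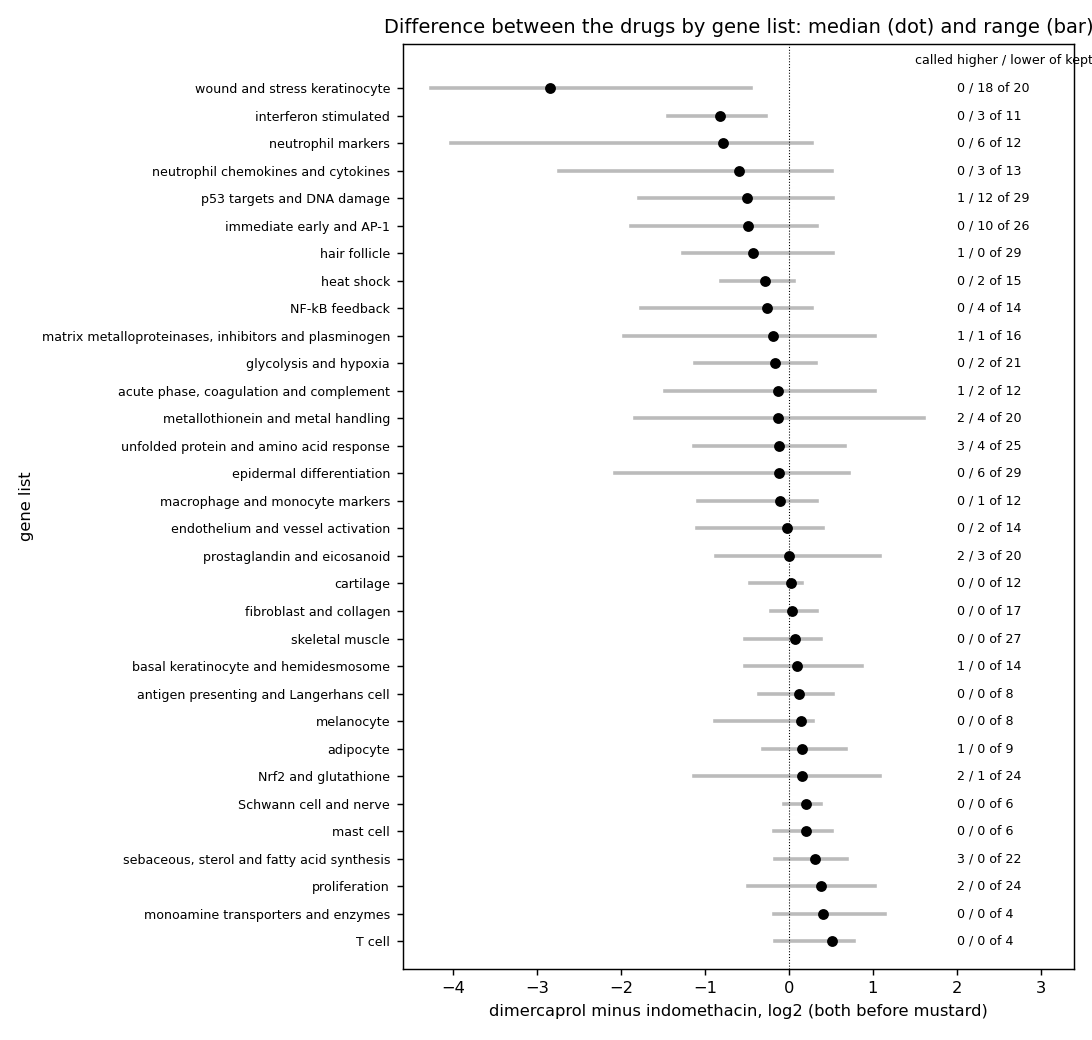
Median (dot) and range (bar) of the log2 difference, dimercaprol minus indomethacin, over the kept members of 32 gene lists, with the number called higher and lower. The wound keratinocyte list has the lowest median, -2.84, and the remaining lists lie between -0.82 and 0.51.

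Array B, which measures other probe sets in the same RNA, had far fewer calls. There 99 of 17073 probe sets (0.58%) were called, 58 higher and 41 lower after dimercaprol. By gene, 45 of 8052 were higher (0.559%) and 26 lower (0.323%), and 135 (1.68%) had ears that did not overlap. Of 2570 genes tested on both arrays, 221 were called on array A, 18 on array B and 9 on both, all 9 in the same direction. Among named genes, Robo1 (1.12 on array A) and Hsp90aa1 (-0.81) differed by -0.10 and 0.05 on array B, where neither passed. Elovl6, Plk2, Etv4, Tgm3 and Adm kept their direction there (0.21, -0.36, -1.12, -0.69 and -0.71) but did not pass, whereas Ptges passed at -0.75. Probe sets of a gene on 1 array also varied. Of those kept, 1 of 2 was called for Cdkn1a, Rptn, Ptges, Lpl, Sema3d and Ppara and 2 of 4 for Srxn1, but 3 of 3 for Slco3a1, Mycl and Hsp90aa1. Lce3b, a neighbour of Lce3c, was lower by -2.59 ± 0.39, with signals of 1640, 2890 and 7750 against 8470, 19900 and 37500. Btnl2, a butyrophilin family gene, was tight after dimercaprol at 155 to 184 and ran from 429 to 935 after indomethacin (-1.90 ± 0.19, adjusted p = 0.000486). Higher genes included Cenpi, a centromere protein gene, at 403, 661 and 1130 against 67.0, 113 and 217 (2.28 ± 0.29, adjusted p = 0.00559). It kept its call in all 25 alternatives that gave it a value. Sema3d, a secreted semaphorin, was higher by 1.49 ± 0.22, Nuak1, an AMPK-related kinase, by 1.22 ± 0.16 and Ppara, a lipid-sensing nuclear receptor, by 1.01 ± 0.16. Counts on array B ranged from 11 to 489 when single ears were left out: 11 without dimercaprol ear 6 or 9, 12, 20 and 173 without dimercaprol ears 10, 11 and 12, and 15, 22, 489, 13, 181 and 17 without indomethacin ears 16, 17, 18, 19, 21 and 22.

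The drugs were also compared on array A without mustard, in 4 ears each. Only 18 of 16555 probe sets (0.109%) were called, 2 higher and 16 lower after dimercaprol, and 1699 had an unadjusted p under 0.05. Of the 1249 probe sets called with mustard, 1204 were in this fit and 2 were called. With 4 ears a group in place of 6, the lack of a call here does not show equal levels. Txnip, a thioredoxin-binding regulator of glucose uptake, was 1980 to 2800 after dimercaprol alone and 6960 to 8680 after indomethacin alone (-1.73 ± 0.12, adjusted p = 0.000125), while ethanol and naive ears had means of 4580 and 2060. Pdk4, the kinase that holds back pyruvate oxidation, differed by -2.33 ± 0.25 (adjusted p = 0.00486) and Angptl4, a lipase inhibitor, by -1.61 ± 0.19 (adjusted p = 0.00902). Tsc22d3, a glucocorticoid-induced leucine zipper gene, and Cebpd differed by -1.22 ± 0.17 and -1.17 ± 0.19. Nkd2, a WNT pathway inhibitor, and Kpna2, an importin, were higher by 1.68 ± 0.28 and 0.95 ± 0.15 (adjusted p = 0.0493 for both). Leaving out single ears gave from 4 to 27 calls: 4, 5, 5 and 7 without dimercaprol 507, dimercaprol 510, indomethacin 512 and indomethacin 514.

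Whether the drug difference depended on mustard was tested as an interaction over the 20 ears of the 4 groups, mustard here standing for all that set those ears apart. It passed for 379 of 16010 probe sets (2.37%), 150 with a more positive and 229 with a more negative difference under mustard. Of the probe sets called with mustard, 1239 were in this fit and 210 passed. Slpi had dimercaprol and indomethacin means of 748 and 556 without mustard, a difference of 0.34 ± 0.27, and an interaction of -3.56 ± 0.67 (adjusted p = 0.0193). Krt6b had means of 921 and 441 without mustard and Krt16 of 1350 and 791, with no call, and their interactions were -4.63 ± 1.01 and -3.99 ± 0.87. Gjb2 and Kpna2 had the smallest adjusted interaction p of the named genes, 0.0163, at -2.39 ± 0.37 and -1.32 ± 0.20. For S100a8 and S100a9 the interaction did not pass (adjusted p = 0.0597 and 0.0509). Txnip had an interaction of 1.75 ± 0.37, since its difference under mustard was 0.02. Without rescaling, 28 probe sets passed the interaction test. The ears without mustard came from animals numbered in another series (506 to 515) and their labels name no methylene chloride, so that mustard, its solvent and the animal series cannot be told apart in this test.

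**Figure D5:**
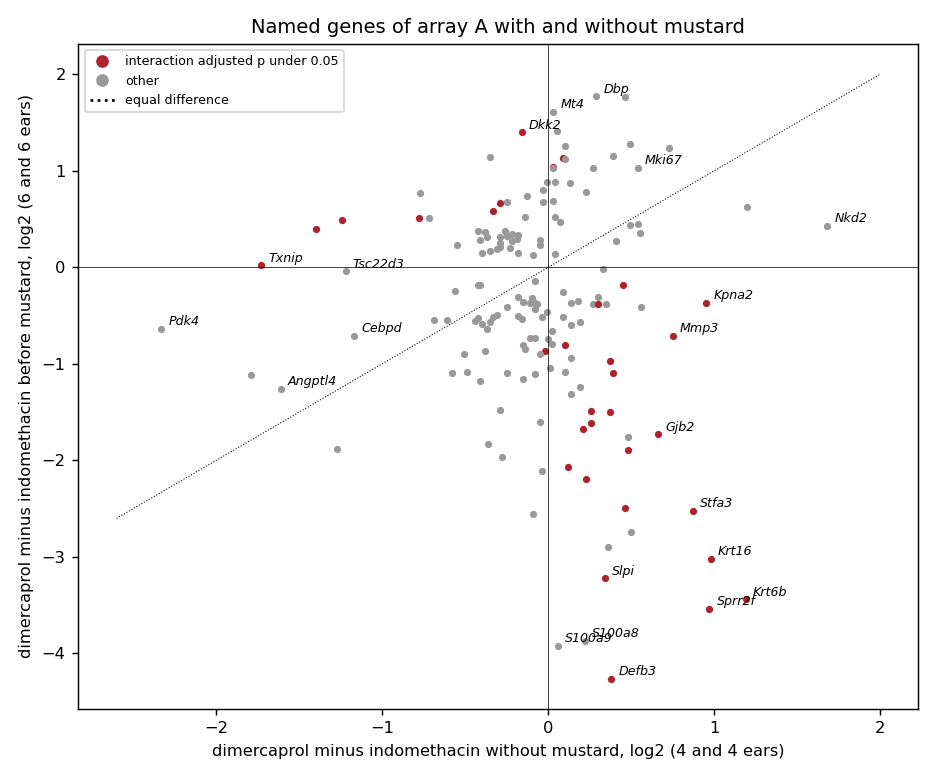
Dimercaprol minus indomethacin (log2) in named array A genes without mustard (horizontal, 4 and 4 ears) and before mustard (vertical, 6 and 6 ears), with genes past the interaction test in red and equality as a dotted line. Slpi, Krt16 and Sprr2f lie far below the line, and Txnip and Pdk4 differ more without mustard.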

How the data were processed

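Total RNA (10 µg) from ear biopsies was hybridized to Affymetrix arrays A and B. Per the submitters' processing notes, the authors used MAS5, whose version, scaling and background options are not given in the sources used here. The deposited numbers are linear intensity signals. Arrays give no depth, and 6 ears a group limit the precision. Nothing in the labels says more of the animals than their numbers, so p-values measure the spread between these ears.

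Groups were read from the treatment labels. Signals were multiplied so that the 2% trimmed mean became 500 on every array, control probe sets were left out, and log2(signal + 16) was analysed for probe sets with a mean of at least 100 over the 12 ears (15264 of 22626 on array A, 17073 of 22511 on array B). The arrays were fitted apart with limma 3.58.1 (functions lmFit and eBayes, the latter with a trend), run under R 4.3.3, and tables were read by data.table (version 1.17.8). P-values are 2-sided and Benjamini-Hochberg adjusted over probe sets, with a threshold of 0.05, and the scripts were tested on simulated data. A gene stands for 1 probe set, the one of highest mean log2 value among those kept. Genes came from the platform annotation (20393 probe sets of array A had 1 symbol, 691 several, 1555 none; 14674, 245 and 7605 on array B); promoters came from RefSeq.

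Eligible for naming were the 12 largest called differences in each direction on array A and 6 on array B among genes without overlap of ears, up to 4 members of each of 32 lists with the smallest adjusted p, a panel of drug and skin response genes, and the 5 largest called differences in each direction without mustard and of the interaction. Clone and accession names were skipped. Members and lists were chosen with earlier results of these data known. Krt17, Epgn, Hbegf, Defb3, Tgfa, Ereg, Krt5, Krt10, Flg, Lor, Pmaip1, Fosl1, Junb and Ngp were named as list or interval members after their values were seen. The 12 ears came from 12 animals and share no number between the groups; the left ear of the same animal (4 animals a group) served as an alternative block. Other alternatives were the scaling, pseudocount, filter, trend, covariates (brightness, Gapdh ratio, skeletal muscle level) and leaving out ears; leaving out dimercaprol ears 8 and 12 together was chosen after seeing the data.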

Additional observations from a re-analysis of the deposited data

Results flagged for a closer look

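Of 338 groups of 6 ears over 169 named genes, 18 held an ear whose gap to its nearest neighbour was large against the range of the group (Dixon's test); chance marks about 1 in 20 groups. Dimercaprol ear 12 was the highest ear in 6 of these, with signals of 9590 for S100a8, 7440 for S100a9, 1380 for Sprr2f, 411 for Cxcl1, 1690 for Mdm2 and 285 for Procr. Dimercaprol ear 9 was highest for Cds1 at 9680, H2-Aa at 3540, Acaca at 4350 and Gata3 at 1310, and lowest for Pmp22 at 1590. Dimercaprol ear 8 was lowest for Slco3a1 at 580 and highest for Hapln1 at 126, and dimercaprol ear 6 was lowest for Asprv1 at 7760 and Thy1 at 1010. Among indomethacin ears, ear 19 was highest for Cd8a at 2340, ear 21 for Igtp at 1110 and ear 18 for Acaca at 3050. Of 32 lists, the skeletal muscle list had such an ear, indomethacin ear 19, at a mean level of -1.23.

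In 34 named genes the drug difference with mustard differed from that without mustard by the interaction test (limma, adjusted p under 0.05), in which mustard cannot be told apart from its solvent and the animal series. The log2 interactions above 0 were Best2 2.76, Tle6 1.88, Narf 1.81, Txnip 1.75, Kcna1 1.73, Dkk2 1.57, Dst 1.29, Meox2 1.04, Kcnk2 1.01, Vldlr 0.96 and Elovl6 0.91. Those below 0 were Defb3 -4.64, Krt6b -4.63, Sprr2f -4.52, Krt16 -3.99, Slpi -3.56, Stfa3 -3.39, Sprr2h -2.95, Ifi202b -2.42, Gjb2 -2.39, Gjb6 -2.37, Rptn -2.19, Wfdc12 -1.88, Sprr1a -1.87, Sprr2d -1.87, Dusp6 -1.75, Tgm3 -1.49, Mmp3 -1.46, Tgm1 -1.34, Kpna2 -1.32, Hsp90aa1 -0.90, Alox12b -0.85, Pgam1 -0.68 and Maoa -0.63.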

How the results depend on the processing

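Array A gave 1249 calls, and array B 99. On array A the count was 583 for the right minus left ear (the replicate block of an animal), 0 with brightness as a covariate, 301 when the Gapdh ratio was the covariate, and 185 without the brightest and dimmest array of each group. On array B it was 33 without rescaling, 283 with scaling on shared probe sets, 34 with no filter, 274 with a minimum signal of 300, 2 with eBayes without trend and 305 with all ears of the mustard series in one fit. It was also 40 for the right minus left ear, 66 with brightness as a covariate, 15 with the Gapdh ratio and 428 without the brightest and dimmest arrays. Leaving out one ear gave 281 to 1987 calls on array A and 11 to 489 on array B. The share of calls with the dimercaprol mean nearer the methylene chloride mean, 97.2%, was 88.9% without rescaling, 99% with the Gapdh ratio, 98.9% without the brightest and dimmest arrays, and 96.4% to 98.7% without single ears. The 18 calls without mustard became 9 without rescaling, 11 with quantile normalization and 4 to 27 without single ears. The 379 interaction calls became 28 without rescaling and 270 with brightness as a covariate. Hspa8 turned to 0.02 without rescaling, and Asprv1 and Slfn4 turned to 0.02 and 0.17 for the right minus left ear. The cause was not tested. Of 86 called named genes on array A, 83 kept their direction in the 26 alternatives and 0 kept their call in all of them. That 0 was fixed by brightness as a covariate, with which no array A probe set passed. On array B all 12 kept their direction and 1 its call. Left ears of the same animals, 4 and 4, a comparison chosen after seeing the data, gave 5 calls on array A and 0 on array B (limma; 1166 and 1254 with an unadjusted p under 0.05). Arrays give no depth, and array B was dimmer than array A.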

Other observations

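Circadian clock genes were looked at after the Dbp values had been seen. Of 19 listed, 17 were kept, and 5 were called higher after dimercaprol: Dbp, Hlf (1.53 ± 0.40, adjusted p = 0.0334), Per3 (0.57 ± 0.13, adjusted p = 0.0246), Nr1d2 (0.67 ± 0.18, adjusted p = 0.0336) and Rora (0.72 ± 0.15, adjusted p = 0.0182), by limma. Bhlhe40, a repressor of clock transcription, was the 1 called lower (-0.61 ± 0.11, adjusted p = 0.0111). Among all array A genes 4.58% were called higher and 4.4% lower. Per1 differed by -0.38 ± 0.15 in the mustard ears and did not pass. In the left ears with methylene chloride alone, Per1 signals were 416 to 496 in 4 dimercaprol animals and 737 to 902 in 4 indomethacin animals, without overlap. Per3 did not overlap there either, at 419 to 562 against 335 to 392, in the direction of the mustard ears. Hlf and Rora overlapped between those left ears, at 1150 to 1890 and 976 to 1800, and at 3610 to 4020 and 3420 to 4670. The time of day of treatment or biopsy is not in the labels.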
